A study of Mus musculus with 6 samples.

Results

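The genes described here are the 74 of 21761 genes in a mouse RNA-seq table whose level was high on day 4 of a bone marrow culture and low both before and after. They were selected on measured values. The smaller of the 2 day 4 libraries had to hold at least 20 RPKM (reads per kilobase of gene, scaled to the reads of the library), and that value had to be at least 4 times the largest of the 4 other libraries. The thresholds alone took 80 genes, and 6 were then left out by symbol (1 that starts with Mir or Snor, 4 that start with Slc, and 1 of Prss34 and Hdc). Because day 4 chose the members, every day 4 value of a member below is a description and carries no test.

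The study followed bone marrow of male C57BL/6J mice in a culture that yields dendritic cells. Fresh marrow was the day 0 group (libraries II and III), cells from day 4 formed the group titled CMP, for common myeloid progenitor (libraries I and II), and cells from day 7 formed the group titled BMDC, for bone marrow derived dendritic cell (libraries III and IV). The cultures received Flt3L, the ligand of the receptor Flt3, through a supernatant of a transfected SP2/0 line, a mouse myeloma, that made up 20% of the medium. All living cells of a culture entered a library, so the names CMP and BMDC describe a day and not a sort. Nothing in the labels says whether replicates were separate animals or cultures, so the p-values speak only of the scatter among these libraries, part or all of which may be technical.

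Neutrophils, the most numerous marrow granulocytes, fill their granules in sequence: primary granules in the promyelocyte, secondary granules in the myelocyte, and tertiary granules and secretory vesicles in the latest stages. Receptors for bacterial peptides, lipid mediators and complement reach the surface late in that sequence. Flt3L acts on progenitors that give rise to dendritic cells, and the marrow put into such a culture also carries red cell, neutrophil and monocyte precursors.

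The name CMP was checked against progenitor markers. Kit, the stem cell factor receptor, had 10.6 and 21.0 RPKM on day 0, 8.34 and 18.1 on day 4, and 0.0411 and 0.0505 on day 7. Cd34, a surface protein of progenitors, had 7.79 and 9.56 RPKM on day 0, 11.6 and 6.13 on day 4, and 2.40 and 2.36 on day 7. Ltf, the lactoferrin of secondary granules and no progenitor gene, had 2337 and 779 RPKM on day 0, 4411 and 4022 on day 4, and 0.429 and 0.333 on day 7. Kit and Cd34 overlapped between days 0 and 4, and Ltf was far above both on each of these days. Of 18 genes on a list of progenitor markers, which also holds granule genes such as Mpo, 2 (Fcgr3 and Csf3r) were called higher and 0 lower at day 4 against day 0, by the limma test described below, beside 3.66% of all genes tested called higher and 1.92% lower. The group is called day 4 throughout, and in bulk samples fewer cells of a type and less RNA per cell cannot be told apart.

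The median member stood at 12 and 15 RPKM on day 0, at 117 and 114 RPKM on day 4, and at 4.46 and 3.73 RPKM on day 7. Together the 74 members made up 0.427% and 0.407% of all reads on day 0, 3.67% and 3.74% on day 4, and 0.237% and 0.215% on day 7. The ratio on which the rule turned, the smaller day 4 value over the largest other value, had a median of 5.44 and ran from 4.03 to 25.3. That largest other value was a day 0 library for 59 members and a day 7 library for 15. Just inside the fold threshold stood Clk4 at 4.03, Kbtbd7 at 4.04 and Rnf185 at 4.04, and just outside it Cd200r4 at 3.90, Rsrp1 at 3.90 and Myo1f at 3.87. At the level threshold the smaller day 4 values just inside included 20.6 RPKM for Ptgir and 21.7 for Nt5e. Just outside it were 14.8 for Tnfrsf22, 9.40 for Olfr822 and 8.67 for D930048N14Rik.

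**Figure D1:**
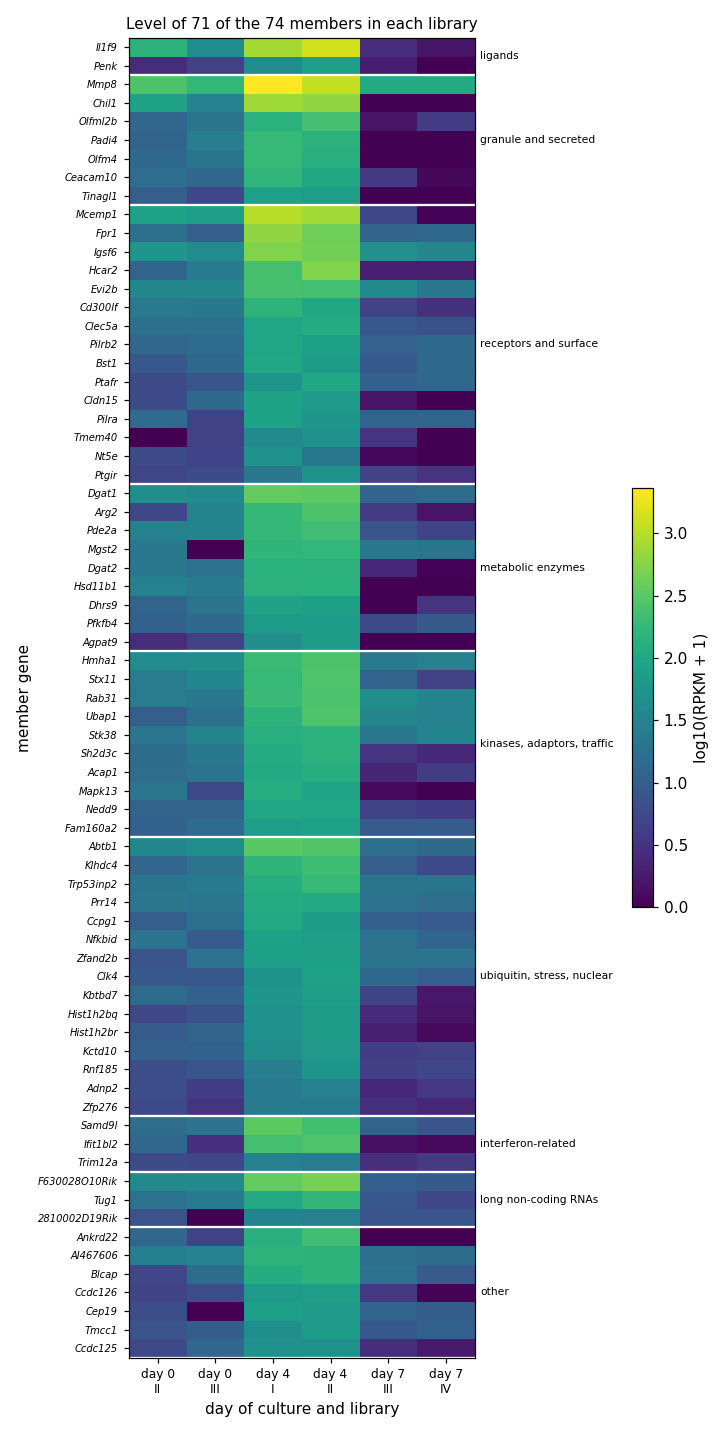
Level of 71 of the 74 members (down the page, grouped by role) in the 6 libraries (across, in order of culture day), with colour for log10(RPKM + 1). Both day 4 columns are the brightest in every line, as the rule requires, while the day 7 columns range from 0 to levels above those of day 0, as for Ubap1.

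Depth differed with the day of culture: the reads in genes numbered 322837 and 157797 on day 0, 1365635 and 3852628 on day 4, and 16149088 and 10951745 on day 7. A floor of 3 reads in a gene 1 kb long was worth 9.29 RPKM in day 0 library II, 19.01 RPKM in day 0 library III, and at most 2.20 RPKM later. Many day 0 values of the members therefore rest on few reads: 13 members had 3 or fewer reads in library II and 23 in library III. The 2 day 4 libraries lay more than 2-fold apart for 5 members (Mmp8, Hcar2, Nt5e, Ptgir and Rnf185). Medians over all genes differed as well, at 4.05 and 5.50 RPKM in day 0 libraries II and III, 3.53 and 1.27 at day 4, and 0.445 and 0.212 at day 7.

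The rule capped days 0 and 7 but did not compare them with each other. That contrast, day 7 against day 0, asks whether the members ended below the level at which they began. It was tested with limma on log2(RPKM + 1), 2 libraries against 2 with the spread estimated over all 6, and a gene was called at a Benjamini-Hochberg adjusted p under 0.05 over all 19279 genes tested. All 74 members passed the filter on low values. At day 7 35 members were lower (47.3%) and 1 was higher (1.35%). Over all genes tested, 29.3% were called lower and 11.3% higher. The share of higher calls lay under the background and that of lower calls above it. The rule barred genes highest at day 7 or at day 0, so both shares were partly set by the selection. The median log2 fold change of the members was -1.12, against -1.14 for all genes tested, a difference of the medians far under the spread among members. That closeness depends on the settings. With a filter at 5 RPKM the members' median was -1.12 and that of all genes tested -0.24. With 0.1 added to RPKM in place of 1 they were -1.22 and -1.97. With voom on the reads recovered from RPKM they were -1.41 and -2.78, and 10155 of 19279 genes were then called lower. The shallow day 0 libraries scatter more than the shared spread allows for, and on simulated data unadjusted p-values against day 0 were too small, with false calls mostly of low genes called higher at day 7.

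The spread around that median was wide. Both day 7 libraries lay under both day 0 libraries for 50 members, and above both for 9. The share of all genes with such an order was not counted, so neither count has a background beside it. In 14 members both day 7 values were under 1 RPKM, and in 5 of them (Chil1, Hsd11b1, Olfm4, Tinagl1 and Ankrd22) no read was seen at day 7. The median over all genes was under 1 RPKM at day 7 too, at 0.445 and 0.212 RPKM. Against a floor of 3 reads per library, and taking the smaller day 0 value, Chil1 was at least 185-fold lower, Hsd11b1 162-fold and Olfm4 79.2-fold. Those day 0 values rest on 8, 7 and 7 reads. For Tinagl1 and Ankrd22 the same ratios were 46.3 and 23.1. Their smaller day 0 values rest on 2 reads and 1 read, under that floor, so these ratios are no bounds. Setting all 5 genes to these ratios could not move the members' median of -1.12. Their fitted log2 fold changes and these ratios, on that scale, all lie below it. Quantile normalization, which brings the all-gene median to -0.16, gave a members' median of -0.80 with 23 members lower and 0 higher, while 1082 of 19279 genes were then called lower. Thinned to equal depth, 21 members were lower and 1 higher. Without day 7 library IV 18 members were called, all lower, while 594 genes in all were lower and 775 higher, and without library III 22 members, beside 746 and 880 genes.

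**Figure D2:**
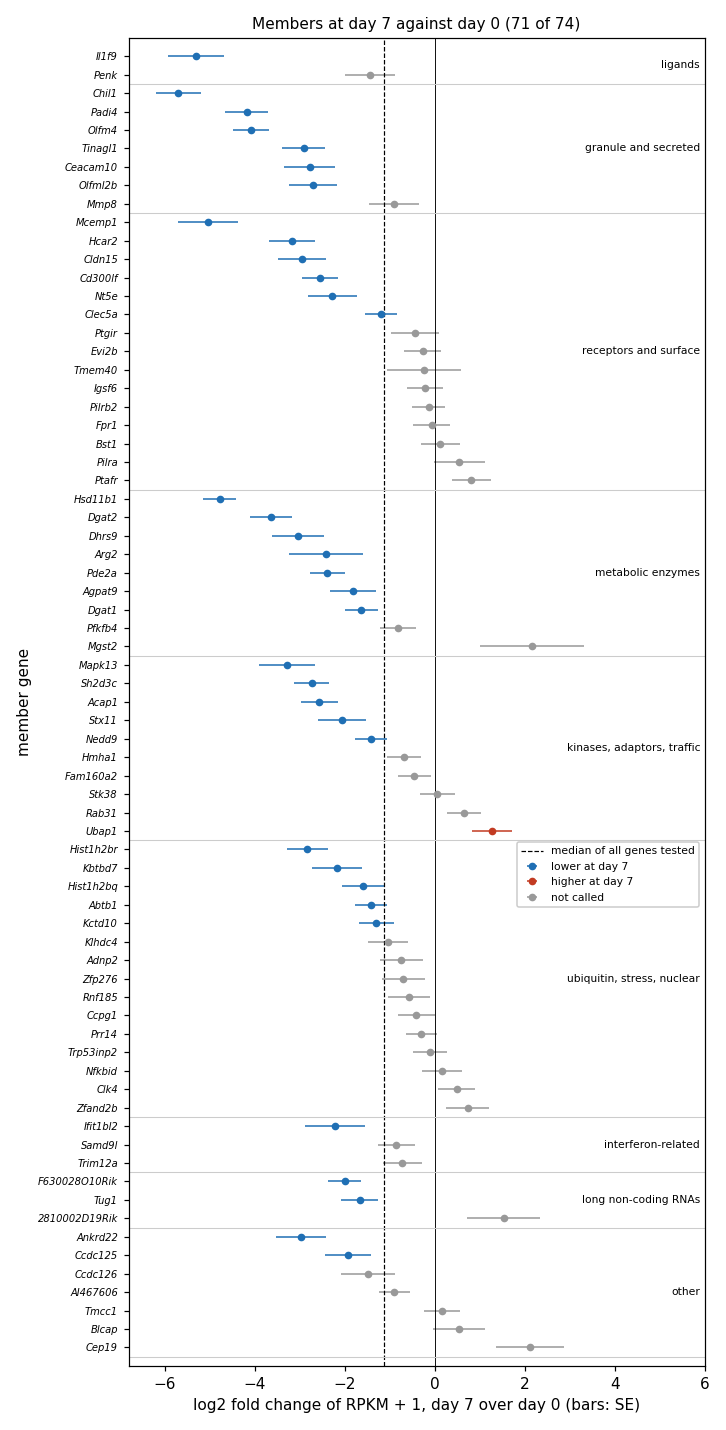
Fitted log2 fold change of RPKM + 1 at day 7 over day 0 for 71 of the 74 members, with its standard error as a bar, grouped by role, 2 libraries a day. Blue points were called lower and the red point (Ubap1) higher, and the dashed line is the median of all genes tested, -1.14.

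Among 7 granule and secreted proteins, the most abundant was Mmp8, neutrophil collagenase, a protease stored in secondary granules. Mmp8 had 264 and 165 RPKM on day 0, 2308 and 1118 on day 4, and 111 and 112 on day 7, which made it the highest member on day 4. It was also the one protein of its group whose day 7 level was not called, with a log2 fold change of -0.90 ± 0.56 (SE) against day 0 and an adjusted p of 0.221 in limma. Its promoter is shown because Mmp8 heads the list, with the letters of factors known for granulocyte genes in capitals. They are TTGCNNAA on either strand for the C/EBP family and GAGGAA on either strand for PU.1 and other ETS factors. The sequence is that of RefSeq on GRCm38.p6, the 250 bases before the listed start, plus strand, chr9:7558179-7558428.
Mmp8: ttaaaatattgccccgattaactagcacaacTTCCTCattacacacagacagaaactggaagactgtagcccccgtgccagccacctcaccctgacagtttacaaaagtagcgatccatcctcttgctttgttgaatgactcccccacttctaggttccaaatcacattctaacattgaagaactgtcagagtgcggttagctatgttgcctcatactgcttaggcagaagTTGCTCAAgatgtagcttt
The C/EBP letters start 19 bases and the ETS letters 219 bases before the start.

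The other 6 proteins of that group were all called lower at day 7 than at day 0, beside 29.3% of all genes tested. Chil1, a chitinase-like protein of granulocytes and macrophages, had 86.2 and 30.0 RPKM at day 0, 760.4 and 641 at day 4 and 0 in both day 7 libraries. Padi4, the deiminase that converts arginines of histones in neutrophils, had 11 and 26.7 RPKM on day 0, 176 and 142 on day 4, and 0.0200 and 0 on day 7. Olfm4, which marks a subset of neutrophils by its secondary granules, had 13.2 and 19.3 RPKM on day 0, 180.4 and 128 on day 4, and 0 in both day 7 libraries. In these 3 genes no library of one day overlapped with those of another. Padi4 fell by 4.18 ± 0.47 on the log2 scale (SE, adjusted p = 0.00123, limma), the lone read of its day 7 libraries being in library III. The remaining 3 were Ceacam10, a cell adhesion protein of the carcinoembryonic antigen family, and the matrix proteins Olfml2b and Tinagl1, with day 4 means of 132, 184 and 78.7 RPKM. Their log2 fold changes at day 7 against day 0 were -2.78, -2.70 and -2.91.

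Both ligands among the members lie outside the classical chemokines. Il1f9, also known as interleukin 36 gamma, is a cytokine of the interleukin 1 family that acts on epithelial and dendritic cells. It had 149 and 42.3 RPKM on day 0, 811 and 1378 on day 4, and 1.69 and 0.554 on day 7, the second highest day 4 mean of all members. At day 7 it was lower than at day 0 by a log2 fold change of -5.30 ± 0.62 (SE, adjusted p = 0.0014, limma). Penk, the precursor of the enkephalin opioid peptides, had 1.79 and 3.65 RPKM on day 0, each from 1 read, then 42.7 and 78.7 on day 4, and 0.786 and 0 on day 7. Its day 7 level was not called against day 0 (log2 fold change -1.43 ± 0.55, adjusted p = 0.0685, limma).

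Other genes of its family were tested at the same step. Of 21 tested genes of the interleukin 1 family, its receptors and its processing, 0 were called at day 4 against day 0 in either direction by limma, and 3 had an unadjusted p under 0.05. Casp1, the protease that matures interleukin 1 beta, had 27.1 and 14.9 RPKM at day 4 against 12.3 and 16.8 RPKM at day 0. Il1r2, the decoy receptor, had 60.0 and 8.89 RPKM at day 4 against 50.7 and 9.44 RPKM at day 0, and in both genes the days overlapped. Pycard, the inflammasome adaptor, had 47.0 and 39.0 RPKM at day 4 against 13.1 and 20.8 RPKM at day 0, and Il1a 2.86 and 0.633 RPKM at day 4 against 9.07 and 9.27 RPKM at day 0, with no overlap and adjusted p of 0.0963 and 0.0985 in limma. The promoter of Il1f9 is given for comparison with that of Mmp8, searched for the same letters, from RefSeq on GRCm38.p6, plus strand, chr2:24186226-24186475.
Il1f9: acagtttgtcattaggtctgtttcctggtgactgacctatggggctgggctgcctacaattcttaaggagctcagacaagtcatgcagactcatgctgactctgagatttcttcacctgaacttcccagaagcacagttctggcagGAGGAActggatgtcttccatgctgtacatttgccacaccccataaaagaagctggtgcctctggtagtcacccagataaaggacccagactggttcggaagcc
It holds the ETS letters once, from 104 bases before the start, and no C/EBP letters in this window.

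Receptors and surface proteins were the largest role group, with 16 members. Fpr1, the receptor for formylated bacterial peptides, had the largest ratio of all members. It had 16.4 and 9.58 RPKM on day 0, from 7 and 2 reads, 643 and 415 on day 4, and 11.5 and 12.5 on day 7. The day 0 and day 7 values overlapped and the fitted difference of day 7 from day 0 was -0.06 ± 0.41 (SE, adjusted p = 0.91, limma). Fpr2, its close relative and not a member, had 55.0 and 34.2 RPKM on day 0, 102 and 70.1 on day 4, and 21.2 and 21.0 on day 7.

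Mcemp1, a membrane protein first described in mast cells, had 82.1 and 72.8 RPKM on day 0, 1016 and 794 on day 4, and 4.27 and 0.0807 on day 7. Hcar2, the receptor for niacin and the ketone body beta-hydroxybutyrate, had 11.2 and 22.9 RPKM on day 0, 234 and 535 on day 4, and 0.895 in each day 7 library. Both ended lower at day 7 than at day 0, by log2 fold changes of -5.04 ± 0.67 and -3.17 ± 0.51 (SE, adjusted p = 0.00226 and 0.00495, limma). Igsf6, an immunoglobulin superfamily protein of myeloid cells, had 55.2 and 41.6 RPKM on day 0, 531 and 447 on day 4, and 49.0 and 34.8 on day 7, so that the first and last day overlapped. Evi2b, a transmembrane protein of blood cells, had 34.6 and 35.4 RPKM on day 0, 244 and 227 on day 4, and 38.9 and 21.4 on day 7, the last pair lying on either side of the first. Its exons share their strand with those of Evi2, so part of its reads may belong to that gene.

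**Figure D3:**
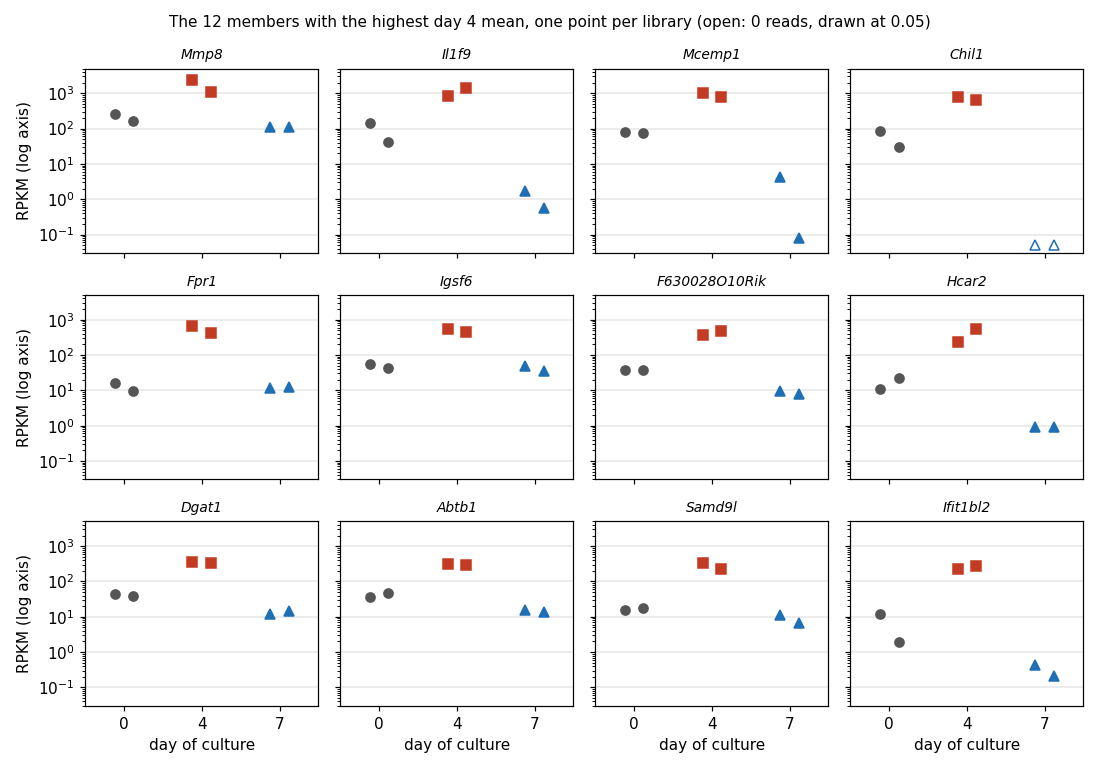
RPKM on a log axis at days 0, 4 and 7 for the 12 members with the highest day 4 mean, one point per library and open points for 0 reads, drawn at 0.05. For Fpr1 and Igsf6 the day 7 points overlap with those of day 0, whereas Chil1, Il1f9 and Mcemp1 lie far below them.

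A second set of surface members comprises receptors of lipid mediators and enzymes of nucleotide metabolism. Ptafr, the receptor for platelet activating factor, had 5.11 and 6.96 RPKM on day 0, 54.7 and 102 on day 4, and 10.2 and 12.4 on day 7. Ptgir, the prostacyclin receptor, had 4.00 and 4.91 RPKM on day 0, 20.6 and 52.0 on day 4, and 3.97 and 2.22 on day 7. Neither was called at day 7 against day 0 (log2 fold changes 0.81 ± 0.43 and -0.44 ± 0.54, SE, limma). A pair of ectoenzymes of nucleotide metabolism were members as well. Nt5e (CD73), which makes adenosine from AMP, had 4.89 and 3.76 RPKM on day 0, 51.8 and 21.7 on day 4, and 0.196 and 0 on day 7, and was called lower at the end (log2 fold change -2.28 ± 0.55, adjusted p = 0.018, limma). Bst1 (CD157), an ADP-ribosyl cyclase, had 7.20 and 12.3 RPKM on day 0, 99.1 and 72.2 on day 4, and 8.04 and 13.3 on day 7, with the first and last day overlapping.

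Paired and lectin-like receptors gave 4 members. Clec5a, a C-type lectin that signals through the adaptor DAP12, had 16.6 and 16.1 RPKM on day 0, 94.4 and 119 on day 4, and 7.54 and 5.75 on day 7. Cd300lf, an inhibitory receptor for membrane lipids, had 22.5 and 21.6 RPKM on day 0, 153 and 102 on day 4, and 3.94 and 2.14 on day 7. Both were called lower at day 7 than at day 0, by log2 fold changes of -1.19 for Clec5a, a call that held in 8 of 15 alternative settings, and -2.55 for Cd300lf, which held in 14. Pilra, the inhibitory one of the paired type 2 immunoglobulin-like receptors, and Pilrb2, of the activating kind, are separated by 1 gene on the chromosome. Pilra had 14.1 and 3.61 RPKM on day 0, 87.6 and 59.3 on day 4, and 11.1 and 11.3 on day 7. Pilrb2 had 12 and 14.0 RPKM on day 0, 96.9 and 77.3 on day 4, and 10.5 and 13.2 on day 7, near those of Pilra except in day 0 library III. Their relative Pilrb1, named after its values were seen, had 6.67 and 0 RPKM on day 0, 78.9 and 93.0 on day 4, and 21.6 and 12.8 on day 7. How reads were split among these similar genes is not given in the sources used here.

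Other surface members are better known from epithelia or other tissues. Cldn15, a claudin of tight junctions, had 85.8 and 66.7 RPKM at day 4, and was called lower at day 7 than at day 0 (log2 fold change -2.94 ± 0.53, adjusted p = 0.00731, limma). Tmem40, a transmembrane protein, had 39.7 and 50.1 RPKM at day 4, and its day 0 level rested on 1 read. A list of 22 other epithelial and keratinocyte genes summed to 57.4 and 72.4 RPKM on day 0, 49.0 and 20.2 on day 4, and 9.94 and 14.3 on day 7. Of its 18 tested genes 0 were called at day 4 against day 0 by limma, and 1 had an unadjusted p under 0.05.

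Over all genes tested 29.3% were called lower at day 7 than at day 0, and of the 9 metabolic enzymes among the members 7 were. Of these, 3 belong to the synthesis of triacylglycerol, the neutral fat of lipid droplets. Dgat1, which adds the last acyl chain, had 45.4 and 38.9 RPKM on day 0, 358 and 324 on day 4, and 11.7 and 14.3 on day 7. Dgat2, an unrelated enzyme for the same step, had 22 and 16.9 RPKM on day 0, 142 and 145 on day 4, and 1.46 and 0.0811 on day 7. Agpat9 (Gpat3), which starts the pathway from glycerol phosphate, had 1.75 and 3.57 RPKM on day 0, 45.4 and 70.9 on day 4, and 0.0175 and 0 on day 7. Its day 0 values rest on 2 reads each, and its day 7 values on 1 read and 0. No 2 days overlapped in any of the 3, and their log2 fold changes at day 7 against day 0 were -1.63 ± 0.36, -3.64 ± 0.47 and -1.81 ± 0.51 (SE, adjusted p = 0.0139, 0.00202 and 0.0264, limma). Of 15 alternative settings the call held in 11 for Dgat1, 15 for Dgat2 and 9 for Agpat9.

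The pathway as a whole was compared through a list of 21 enzymes and droplet proteins made after the members were known, so only values are given. The 3 members on it are highest at day 4 by the rule. Of the 18 others, 5 were highest in both libraries of day 0, 3 in both of day 4 (Agpat2, Mogat2 and Plin3) and 4 in both of day 7, while 6 showed no such order. Agpat2, which adds the second acyl chain, had 24.3 and 9.94 RPKM on day 0, 56.3 and 105 on day 4, and 22.6 and 26.1 on day 7. Mogat2, a monoacylglycerol acyltransferase, had 12.2 and 14.3 RPKM on day 0, 33.5 and 122 on day 4, and 0 in both day 7 libraries. Plin2, the coat protein of lipid droplets, followed another course, with 19.7 and 36.9 RPKM on day 0, 645 and 691 on day 4, and 772 and 769 on day 7. Gpam, the mitochondrial counterpart of Agpat9, had 7.80 and 6.13 RPKM on day 0, 3.69 and 1.21 on day 4, and 0.120 and 0 on day 7.

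Other enzymes covered arginine, steroid and lipid mediator metabolism. Arg2, the mitochondrial arginase, had 4.37 and 31.3 RPKM on day 0, 171 and 261 on day 4, and 3.02 and 0.516 on day 7. Hsd11b1, which regenerates active glucocorticoid, had 28.9 and 24.3 RPKM on day 0, 142 and 139 on day 4, and 0 in both day 7 libraries. Its day 7 call against day 0 had the smallest adjusted p of any member, 0.00031 in limma. Mgst2, a microsomal glutathione transferase that can make leukotriene C4, had 21.0 and 0 RPKM on day 0, 158 and 167 on day 4, and 21.7 and 18.6 on day 7. Pde2a, a phosphodiesterase of cyclic nucleotides, Dhrs9, a retinol dehydrogenase, and Pfkfb4, a kinase that sets the level of a glycolytic activator, had day 4 means of 193, 83.3 and 67.6 RPKM. Of these Pde2a and Dhrs9 were called lower at day 7 than at day 0 and Pfkfb4 was not (log2 fold change -0.81 ± 0.40, adjusted p = 0.133, limma).

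Kinases, adaptors and proteins of vesicle traffic gave 12 members, whose median of the day means was 17.9 RPKM on day 0, 169 on day 4 and 17.3 on day 7. Rab31, a small GTPase of endosomes, had 25.4 and 21.4 RPKM on day 0, 192 and 254 on day 4, and 44.3 and 31.1 on day 7. Ubap1, an ESCRT subunit that sorts ubiquitinated receptors, had 9.42 and 16.3 RPKM on day 0, 149 and 276 on day 4, and 32.9 and 30.1 on day 7. In both of these genes the day 7 values lay above both day 0 values. Ubap1 was the single member called higher at day 7 than at day 0 (log2 fold change 1.27 ± 0.44, SE, adjusted p = 0.0498, limma), and the call held in 4 of 15 alternative settings. The kinase Stk38 had a day 4 mean of 136 RPKM and was not called.

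In that group 5 of the 12 members were called lower at day 7 than at day 0, beside 29.3% of all genes tested. Among these 5, Stx11, the syntaxin needed for granule release by lymphocytes, had 25.6 and 34.9 RPKM on day 0, 179 and 275 on day 4, and 11.3 and 3.45 on day 7. Mapk13, the delta isoform of the p38 kinases, had 20.1 and 4.57 RPKM on day 0, 125 and 89.8 on day 4, and 0.223 and 0 on day 7. Sh2d3c and Nedd9, partners of Cas family signalling, and Acap1, an Arf6 GTPase activating protein, had day 4 means of 131, 95.5 and 118 RPKM. Their log2 fold changes at day 7 against day 0 were -2.74, -1.42 and -2.56. Hmha1, a RhoGAP also known as a minor histocompatibility antigen, and Fam160a2 were not called, at -0.68 and -0.45.

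Proteins of ubiquitination, stress and the nucleus gave 15 members, with a median day 4 mean of 67.1 RPKM. Abtb1, a BTB protein with ankyrin repeats, led them with 36.2 and 46.2 RPKM on day 0, 315 and 284 on day 4, and 15.6 and 13.8 on day 7. Klhdc4, a kelch domain protein, had 11.9 and 18.3 RPKM on day 0, 158 and 210.3 on day 4, and 9.42 and 4.65 on day 7. Kbtbd7, Kctd10 and Rnf185, which are cullin adaptors or a ubiquitin ligase, had day 4 means of 65.5, 54.4 and 41.9 RPKM. Abtb1, Kbtbd7 and Kctd10 were called lower at day 7 than at day 0, and Klhdc4 and Rnf185 were not. Trp53inp2, a regulator of autophagy, Zfand2b, a proteasome-associated zinc finger protein, and Ccpg1, an autophagy receptor of the endoplasmic reticulum, had day 4 means of 156, 77.9 and 88.9 RPKM and were not called.

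Nfkbid, an atypical I-kappa-B protein of the nucleus, had 18.2 and 8.59 RPKM on day 0, 83.3 and 74.4 on day 4, and 17.6 and 11.5 on day 7. Of 21 other genes of the NF-kB pathway and its targets, 1 was called higher and 1 lower at day 4 against day 0, and 7 higher and 0 lower at day 7 against day 4. The splicing factor kinase Clk4, Prr14, which tethers chromatin to the lamina, and the zinc finger proteins Adnp2 and Zfp276 had day 4 means of 67.1, 114, 27.0 and 22.4 RPKM. The histone genes Hist1h2bq and Hist1h2br are near-identical copies, so their values are uncertain: they had 49.3 and 67.2, and 47.3 and 67.1 RPKM, at day 4. Of 20 mitosis and S phase genes tested, 0 were called higher and 2 lower at day 4 against day 0.

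The interferon-related members were Ifit1bl2, Samd9l and Trim12a. Ifit1bl2, of the family of interferon-induced proteins with tetratricopeptide repeats, had 12 and 1.88 RPKM on day 0, 225 and 273 on day 4, and 0.423 and 0.217 on day 7. Samd9l, an antiviral factor that restrains translation, had 15.1 and 17.8 RPKM on day 0, 325 and 223 on day 4, and 11.1 and 6.73 on day 7. Trim12a, of the Trim5 family, had 5.10 and 4.17 RPKM on day 0, 28.2 and 24.8 on day 4, and 1.94 and 2.98 on day 7. In all 3 the day 7 values lay under the day 0 values, and 1 of them, Ifit1bl2, was called (log2 fold change -2.22 ± 0.66, SE, adjusted p = 0.031, limma), a call that held in 7 of 15 alternative settings.

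For better known genes of the interferon response, a pair chosen after their values were seen stands here as values. Ifit1 had 3.52 and 7.21 RPKM on day 0, 31.1 and 6.59 on day 4, and 12.6 and 13.7 on day 7. Isg15 had 0 in both day 0 libraries, 42.6 and 16.1 RPKM at day 4, and 39.3 and 31.4 at day 7. Promoter windows of all 3 interferon-related members held the letters GAAANNGAA, on either strand, which belong to binding sites of interferon regulatory factors. For Ifit1bl2, which has 2 listed starts, these letters lie before the first of them. They are in capitals in the sequence from RefSeq on GRCm38.p6, minus strand, chr19:34640744-34640993.
Ifit1bl2: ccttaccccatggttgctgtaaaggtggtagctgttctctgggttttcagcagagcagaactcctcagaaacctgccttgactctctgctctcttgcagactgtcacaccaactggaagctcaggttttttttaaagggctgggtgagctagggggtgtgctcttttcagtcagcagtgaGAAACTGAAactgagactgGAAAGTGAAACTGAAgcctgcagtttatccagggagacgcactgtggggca
The 3 matches start 70, 51 and 45 bases before that first listed start, and the last 2 overlap.

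Long non-coding RNAs gave 3 members. F630028O10Rik, the host transcript of the microRNA miR-223, had 37.9 and 38.8 RPKM on day 0, 363 and 466 on day 4, and 9.72 and 8.02 on day 7. MiR-223 is a microRNA of granulocytes and monocytes that limits neutrophil production and activity in mice. It is shown here because its host is a member, with the seed, bases 2 to 8, in capitals, from RefSeq on GRCm38.p6, plus strand, chrX:96242884-96242905 for the 3p arm and chrX:96242842-96242864 for the 5p arm.
mmu-miR-223-3p: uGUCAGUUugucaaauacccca
mmu-miR-223-5p: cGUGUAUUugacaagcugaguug
The arms have different seeds. The microRNA gene itself, 110 bases long, held 0 reads in each of the 6 libraries, so the host's value says nothing on the level of the mature microRNA.

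At day 7 F630028O10Rik was lower than at day 0 (log2 fold change -2.0 ± 0.36, SE, adjusted p = 0.00722, limma), with no overlap between the days. Tug1, a nuclear and cytoplasmic RNA found in many tissues, had 17.1 and 22.3 RPKM on day 0, 106 and 165 on day 4, and 7.12 and 4.16 on day 7, and was called lower too. For 2810002D19Rik the values were 6.27 and 0 RPKM on day 0, 32.1 and 28.0 on day 4, and 6.81 and 6.78 on day 7, the first resting on 3 reads. The last 7 members have little described or mixed roles. Ankrd22, an ankyrin repeat protein, had 12.4 and 3.61 RPKM on day 0, 129 and 212 on day 4, and 0 in both day 7 libraries. AI467606, Blcap, Ccdc126, Cep19, Tmcc1 and Ccdc125 had day 4 means of 48.1 to 151 RPKM, and of these Ccdc125 was called lower at day 7 than at day 0.

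Of 23 gene lists for cell types and pathways, 16 members stood on at least one, and 8 of these on the list of late and tertiary granule neutrophil genes. Among genes of all lists that are not members, 472 were tested, and 58 were called higher and 27 lower at day 4 against day 0 (limma). The background shares at that step are the 3.66% and 1.92% given above. The limit on p-values against day 0 holds here too. The list genes include Prss34, Slc2a3 and Slc7a11, which met both thresholds and were left out of the members by symbol. At day 7 against day 4, 71 list genes were higher and 118 lower, beside 5.85% and 6.75% of all genes tested. Over all genes the median log2 fold change came to -0.40 in the first step and -0.81 in the second. Higher genes were 65.6% of all calls in the first step, against 28.1% after thinning to equal depth and 37.5% with voom on the recovered reads. With either day 4 library left out, 0 genes were called in these steps by limma, list genes or others, while 186 and 154 list genes had an unadjusted p under 0.05 at day 4 against day 0, and 236 and 241 at day 7 against day 4. Leaving out day 0 library II or III gave 177 and 150 list genes in the first step, and leaving out day 7 library III or IV gave 53 and 55 in the first step and 122 and 118 in the second.

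Neutrophil genes outside the members were called more often in the second step than in the first, a difference that was not tested. Calls over all genes tested also rose, from 3.66% higher and 1.92% lower in the first step to 5.85% and 6.75% in the second. Of 47 late and tertiary granule genes, 15 were higher and 0 lower at day 4 against day 0, and 7 higher and 30 lower at day 7 against day 4. Of 15 secondary granule genes, 1 was higher and 0 lower in the first step, and 0 higher and 10 lower in the second. Of 11 primary granule genes 0 were called in the first step in either direction by limma, 0 had an unadjusted p under 0.05 there, and 9 were lower in the second. Mmp9, the gelatinase of tertiary granules, had 168 and 143 RPKM on day 0, 984 and 546 on day 4, and 0.848 and 0 on day 7. It missed the fold threshold and was called in both steps, with log2 fold changes of 2.23 ± 0.46 and -9.08 ± 0.46 (SE, adjusted p = 0.0338 and 0.000106, limma). The call of the first step held in 7 of 15 alternative settings and that of the second in 13.

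Csf3r, the receptor of the neutrophil growth factor G-CSF, had 34.3 and 44.5 RPKM on day 0, 362 and 121 on day 4, and 23.3 and 30.0 on day 7. Itgb2l, an integrin beta chain of granulocytes, was higher at day 4 than at day 0 by 1.97 ± 0.37 on the log2 scale (adjusted p = 0.0257, limma). These 2 calls at day 4 against day 0 held in 5 of 15 alternative settings for Csf3r and 9 for Itgb2l. Cebpe, the factor needed for secondary granules, had 80.1 and 51.2 RPKM on day 0, 101 and 146 on day 4, and 0 in both day 7 libraries.

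The day 0 libraries differed in their neutrophil RNA. The secondary granule list summed to 38652 and 7132 RPKM in day 0 libraries II and III, to 37680 and 31263 at day 4, and to 7762 and 6709 at day 7, where Lyz2, the lysozyme that macrophages also make, was 7224 and 6272 of the sum. The late granule list summed to 35048 and 5779 RPKM on day 0, 29139 and 20354 on day 4, and 6512 and 6000 on day 7. The 74 members summed to 1594 and 1402 RPKM on day 0, 14290.3 and 14137.9 on day 4, and 764 and 686 on day 7. Day 0 library II thus held the neutrophil lists at or above the level of day 4, and the members at about the level of library III. Because the rule asked for both day 0 libraries to be low, this is a description of the selection, and the part of neutrophil content in the members' values was not tested.

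**Figure D4:**
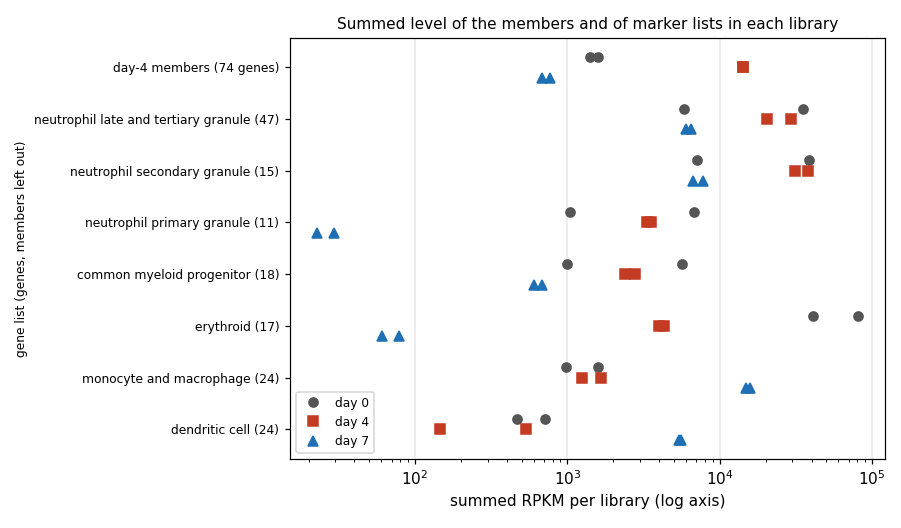
Summed RPKM per library, on a log axis, of the 74 members and of marker lists without the members (number of genes in brackets), 2 points per day. The 2 day 0 points of the neutrophil and progenitor lists lie far apart and enclose or reach the day 4 points. The members' 2 day 0 points lie at 1594 and 1402, well below the day 4 points, as the rule requires.

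Marker lists of other cell types also differed between the days. Erythroid genes held 8.05% and 4.15% of all reads on day 0, 0.421% and 0.456% on day 4, and 0.0211% and 0.0218% on day 7, and all 17 tested were called lower at day 4 against day 0. With RPKM computed on the reads outside that list, an alternative chosen after seeing the data, 67 genes passed the rule, all of them among the 74. Monocyte and macrophage genes summed to 1592 and 981 RPKM on day 0, 1659 and 1253 on day 4, and 14940 and 15743 on day 7, and dendritic cell genes to 715 and 468 RPKM on day 0, 532 and 145 on day 4, and 5377 and 5543 on day 7. Of 27 basophil, mast cell and eosinophil genes, 2 (Hdc and Prss34) were called higher and 0 lower at day 4 against day 0. The rule excludes both of them by name, and Prss34 met its thresholds, so the selection set the rise of Prss34. The part of these cell types in the members' levels was not tested.

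Pathway lists that share a theme with single members gave mixed counts at day 4 against day 0. Of 23 chemoattractant and migration receptors 4 were higher and 1 lower, among them C5ar1, the receptor of complement C5a (3.05 ± 0.41 on the log2 scale, adjusted p = 0.012), and Itgb2, the common chain of leukocyte integrins (3.07 ± 0.46, adjusted p = 0.0143, both limma). Of 41 C-type lectin and paired receptors 10 were higher and 1 lower. Cd300lb, the activating relative of Cd300lf, had 13.5 and 21.2 RPKM on day 0, 247 and 174 on day 4, and 58.9 and 54.1 on day 7, and Clec4n (dectin-2) had 0 and 3.92 RPKM on day 0, 63.9 and 107 on day 4, and 306 and 276 on day 7. Of 17 eicosanoid genes 3 were higher and 0 lower. Alox5, the first enzyme of leukotriene synthesis, was lower at day 7 than at day 4 by a log2 fold change of -5.23 ± 0.45 (SE, adjusted p = 0.000459, limma).

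The stress lists hold 1 member, Pfkfb4. Of 22 genes of the oxidative stress response 11 were higher and 0 lower at day 4 against day 0, and of 26 hypoxia response genes 9 were higher and 0 lower. Of 21 genes of the integrated stress response 1 was higher and 1 lower there, and of 17 p53 targets 4 were higher and 0 lower. Hmox1, heme oxygenase 1, had 15.7 and 32.2 RPKM on day 0, 374 and 1518 on day 4, and 880 and 722 on day 7. Srxn1, which reactivates peroxiredoxins, had 2.40 and 7.36 RPKM on day 0, 92.7 and 106 on day 4, and 133 and 122 on day 7. Other genes of the oxidative stress and hypoxia lists, named after their values were seen, lay lower at day 7 than at day 4. Pfkfb4 did so too, with 4.66 and 8.01 RPKM at day 7 against 66.4 and 68.8 RPKM at day 4. The glucose transporter Slc2a3 had 0.916 and 3.52 RPKM at day 7 against 293 and 279.7 RPKM at day 4, and the cystine transporter Slc7a11 had 7.73 and 7.66 RPKM at day 7 against 149 and 433 RPKM at day 4. Slc2a3 and Slc7a11 met both thresholds of the rule and were left out of the members by symbol. The rule therefore set their course, and the counts of these lists include them. The glycolytic enzyme Eno1 had 4.31 and 2.64 RPKM at day 7 against 86.4 and 138 RPKM at day 4. At day 7 against day 4 the oxidative stress list had 1 gene higher and 4 lower, and the hypoxia list 2 higher and 3 lower.

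RefSeq gave a promoter window of 300 bases, 250 before and 50 after the first listed start, for 60 of the members and for 14957 other tested genes. The ETS letters GAGGAA occurred in 24 members (40%) and 27.0% of the other genes, and the interferon regulatory factor letters GAAANNGAA in 10 members (16.7%) and 7.78%. The AP-1 letters TGANTCA occurred in 9 members (15%) and 6.73% of the other genes, and the TATA letters TATAAA in 9 members (15%) and 11.7%. The C/EBP letters TTGCNNAA were found in 5 members (8.33%) and 9.84% of the others, and the hypoxia factor letters ACGTG in 12 members (20.0%) and 22.3%. All were searched on both strands, overlaps between motifs were allowed, and no test was made. Besides the 3 interferon-related genes, the GAAANNGAA letters were in the windows of Pilra, Pilrb2, Cd300lf, Olfm4, Tmem40, Prr14 and F630028O10Rik.

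Some members overlap other genes, and strand handling is not given in the sources used here. In GENCODE vM21, exons of 15 members overlap exons on the opposite strand by at least 100 bases, and those of 7 members overlap exons on their own strand. Among those on the opposite strand are 2170 bases of Ccpg1 with Pigb, 1530 of Kctd10 with Myo1h and 1219 of Ankrd22 with Lipm. At day 4 the partners had 11.5 and 9.33 RPKM for Pigb, 2.56 and 0.303 for Myo1h, and 1.16 and 0.891 for Lipm, each far under the member beside it. Zfp276, at 22.3 and 22.4 RPKM on day 4, is nearer to its partners: Fanca, with 920 shared bases, had 10.3 and 13.3 RPKM, and Vps9d1 15.5 and 15.3 RPKM. For Arg2 the partner Vti1b had 53.8 and 74 RPKM at day 7, where Arg2 had 3.02 and 0.516, and 32.8 and 35.2 RPKM at day 4.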

How the data were processed

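RNA-seq was run on 6 libraries, 2 each of days 0, 4 and 7, prepared from amplified cDNA (SMARTer v3 Ultra Low Input, then NexteraXT), per the labels' protocols. The authors deposited RPKM for 21761 genes with Entrez IDs, symbols and lengths. Per the submitters' processing notes, the tools were TopHat2 2.0.13 and SAMtools 1.1 and the build was mm9. Counter, annotation and strand setting: not given in the sources used here. RPKM times length gave whole reads in every library (largest distance 6.88e-05 reads), from which depth and the alternatives were taken.

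The 19279 genes that reached 1 RPKM in 2 or more libraries were fitted on log2(RPKM + 1) with limma 3.58.1 in R 4.3.3 (3 day means, mean-variance trend, 3 residual degrees of freedom, median prior 5.22), two-sided; fold changes understate low genes. On simulated data the fit gave nearly all changed genes their direction, but at day 7 against day 0 more calls were false than its threshold states, mostly low genes called higher, and unadjusted p-values against day 0 were too small. Tables and plots used Python 3.11.15 and matplotlib 3.10.9. Of 557 list entries 551 were found.

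The members, role groups and lists were chosen with earlier results of these data known. Any member could be named; of other list genes, per list the 4 of highest mean RPKM, the 2 of smallest adjusted p per contrast, and marker genes. Pseudocounts, filters, scalings, thinning to 157797 reads, voom and leaving out each library were tried. Promoters and miR-223 are from RefSeq GRCm38.p6, overlaps from GENCODE vM21; no gene coordinates of mm9 are given. Values of 3 members are not reported here one by one; counts and medians include them.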

Additional observations from a re-analysis of the deposited data

How the results depend on the processing

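The 36 members called at day 7 against day 0 became 23 with quantile normalization and 22 after thinning, and 18 to 44 with a library left out; the other alternatives stayed within 1.5 times. Chil1, Il1f9, Mcemp1, Hsd11b1, Padi4, Dgat2, Acap1 and Hist1h2br were called in all 15 alternatives, Agpat9 and Nedd9 in 9, Clec5a in 8, Ccdc125, Hist1h2bq, Ifit1bl2 and Kctd10 in 7, Ubap1 in 4 and Arg2 in 3. Hist1h2bq changed sign, to 0.28, with quantile normalization, where 53.5% of all calls were higher against 27.9% in the fit reported. List genes outside the members called at day 4 against day 0, 85 in all, became 41 with a pseudocount of 0.1, 45 with voom, 27 without the mean-variance trend, and 0 to 177 with a library left out. At day 7 against day 4 their 189 became 118 with quantile normalization, 87 after thinning, 351 with voom, and 0 to 272 with a library left out. The 74 genes that passed the rule became 350 at 2-fold and 15 at 8-fold, and 78 to 145 with a library left out (138 without day 4 library I, 145 without library II). After thinning 74 passed, of which 63 were members, after quantile normalization 68 (54) and after median-ratio scaling 67 (61). The cause of these shifts was not tested. No paired analysis was possible because the groups compared share at most 1 replicate number. Day 0 depth limits every ratio to day 0.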
